A study of Rattus norvegicus with 15 samples.

Results

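The genes described here encode subunits of the mitochondrial electron transport chain and of ATP synthase, together with a few complex I assembly factors, in the livers of rats fed soy isoflavones. They were chosen by name alone: a probe set belonged to the set if its only annotated symbol began with Ndufa, Ndufb, Ndufc, Ndufs, Ndufv, Uqcr, Cox4 to Cox8 or Atp5, or was Sdha, Sdhb, Sdhc, Sdhd, Cyc1 or Cycs. Where a gene had several probe sets, the one with the highest mean over the 15 arrays stood for it. This gave 87 genes (97 probe sets) of 14204 genes with a single symbol on the array, and 82 of them passed the filter on dim probe sets and were tested. The 82 include Cox6c-ps1, annotated as a transcribed pseudogene, which is counted with complex IV (mean level -0.26, differences of 0.07 with daidzein and 0.31 with genistein). No gene was chosen for a measured value, but the set was chosen with earlier results of these data known.

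Male Sprague-Dawley rats, 4 weeks old at the start, had 5 days of adaptation and then 14 days on one of 3 diets. The control diet was free of isoflavones, the daidzein diet held 2 g/kg daidzein and the genistein diet held 2 g/kg genistein. Each diet was measured on 5 Affymetrix arrays of liver RNA, and all rats ate casein as the protein source, at 200 g/kg. Daidzein and genistein are plant compounds of the isoflavone class, and genistein differs from daidzein by an additional hydroxyl group. The labels call the 5 arrays of a diet biological replicates but do not say whether each held the RNA of a single animal, and p-values measure the spread between these arrays.

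The respiratory chain is built in the inner mitochondrial membrane. Complex I takes electrons from NADH and complex II from succinate, coenzyme Q carries them to complex III, cytochrome c carries them to complex IV, and complex IV passes them to oxygen. Complexes I, III and IV pump protons, and complex V, the ATP synthase, makes ATP as the protons flow back. The liver uses this ATP for gluconeogenesis and urea synthesis. All the genes here are nuclear, and many of their promoters are known to bind NRF1 and ETS-family factors such as GABP.

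The promoters of 6 of these genes are shown because the 5 daidzein arrays of each lay below all 5 controls after quantile normalization, as described further on. They are all the genes with that pattern that have an entry in the promoter table, the exception being Cox6c, which has none. Each line gives the 100 bases just before the annotated start, 5′ to 3′ on the gene's strand, from RefSeq's GRCr8 assembly. Capitals mark matches to GCGCANGCG, the NRF1 motif, or to CCGGAAG, the ETS motif, on either strand.
Ndufc2, chr1:161123090-161123189, plus strand: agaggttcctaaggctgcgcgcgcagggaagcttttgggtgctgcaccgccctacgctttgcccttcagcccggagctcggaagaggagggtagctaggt
Ndufb7, chr19:41477292-41477391, minus strand: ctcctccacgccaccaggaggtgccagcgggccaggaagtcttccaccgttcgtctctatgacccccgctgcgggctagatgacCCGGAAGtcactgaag
Ndufs3, chr3:97339655-97339754, minus strand: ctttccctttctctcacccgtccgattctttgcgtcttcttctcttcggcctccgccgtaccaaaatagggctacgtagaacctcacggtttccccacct
Uqcr10, chr14:83791915-83792014, minus strand: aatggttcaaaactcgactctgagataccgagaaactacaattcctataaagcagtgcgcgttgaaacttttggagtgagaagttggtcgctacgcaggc
Atp5me, chr14:1464760-1464859, plus strand: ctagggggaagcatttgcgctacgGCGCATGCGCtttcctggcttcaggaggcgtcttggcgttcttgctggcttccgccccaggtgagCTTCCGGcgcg
Atp5pf, chr11:37375102-37375201, minus strand: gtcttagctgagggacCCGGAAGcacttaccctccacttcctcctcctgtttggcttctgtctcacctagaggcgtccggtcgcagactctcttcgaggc

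In this window Ndufb7 and Atp5pf held an ETS match and Atp5me matches to both motifs. Ndufc2, Ndufs3 and Uqcr10 had no match to these letters in the 250 bases before their starts. Over that same window, 78 of the 87 genes had an entry in the promoter table. The NRF1 motif was in 16 of them (20.5%), against 5.53% of all 27457 promoters, and the ETS motif was in 21 (26.9%), against 7.74%. Either motif was in 34 of the 78 (43.6%), against 12.3% of all promoters. Both stood together in 3 of the genes, and no matches of the 2 motifs overlapped. Of the 38 complex I promoters 9 held the NRF1 motif and 9 the ETS motif, of the 15 complex V promoters 4 and 5, and of the 15 complex IV promoters 1 and 2. A match is a description of the sequence and was not tested for binding.

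All levels below are on a log2 scale rebuilt from the deposited standardized scores and quantile normalized, so that every array has the same distribution. The zero of the scale is arbitrary, and levels of different genes cannot be compared as amounts of RNA. Mean levels decided which probe set stood for a gene and which probe sets passed the filter. Differences were tested with limma over 18625 probe sets, and a call needs an adjusted p (Benjamini-Hochberg) under 0.05. Only 5 arrays per diet limit the precision. Correlations between arrays ran from 0.931 to 0.969, and no value of the set was missing. The hepatocyte markers, 9 of 9 above the filter, had a median difference of -0.01 with daidzein and of 0.00 with genistein. Their differences ran from -0.52 to 0.07 with daidzein and from -1.02 to 0.24 with genistein. Alb stood at 9.29 with each diet. Quantile normalization sets the level of the brightest probe sets, so such markers cannot show a change in hepatocyte content. Of 8 skeletal muscle markers, Mb, Ckm, Myh2, Acta1 and Myh4 lay under the filter level of -0.30, and 3 passed it, Tnni2 at 0.24, Tnnt3 at 1.23 and Myh1 at 6.51. In whole liver, fewer cells of a type and less RNA per cell cannot be told apart.

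No gene of the set was called in any of the 3 comparisons. Over all probe sets, the share called was 0.322% for genistein against control, 0.0161% for daidzein against control and 0.113% for genistein against daidzein. The differences were small and mostly in one direction. With daidzein, 66 of the 82 genes had a log2 difference below 0, against 51% of all tested genes, and the median was -0.11. With genistein, 55 of 82 were below 0, again against 51% of all genes, and the median was -0.05. The median over all tested genes was 0.00 in each comparison under quantile normalization. The 95% interval of the difference lay within 0.5 of 0, on the log2 scale, for 72 of 82 genes with daidzein and for 75 of 82 with genistein. Over all tested genes it did so for 7520 of 10745 with daidzein and for 7325 of 10745 with genistein. The median SE was 0.084 in the set and 0.124 over all genes. Both contrasts share the same 5 controls.

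Counted per array, the median of the 82 genes relative to the control mean was 0.00, -0.04, 0.01, 0.00 and 0.02 in the controls. The 5 daidzein arrays were at -0.09, -0.14, -0.05, -0.09 and -0.13. The 5 genistein arrays were at -0.01, -0.04, -0.04, -0.13 and -0.03. Every daidzein array was below every control, whereas the genistein arrays overlapped the controls with the exception of genistein 4. These medians are a description over genes with no test of their own.

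**Figure D1:**
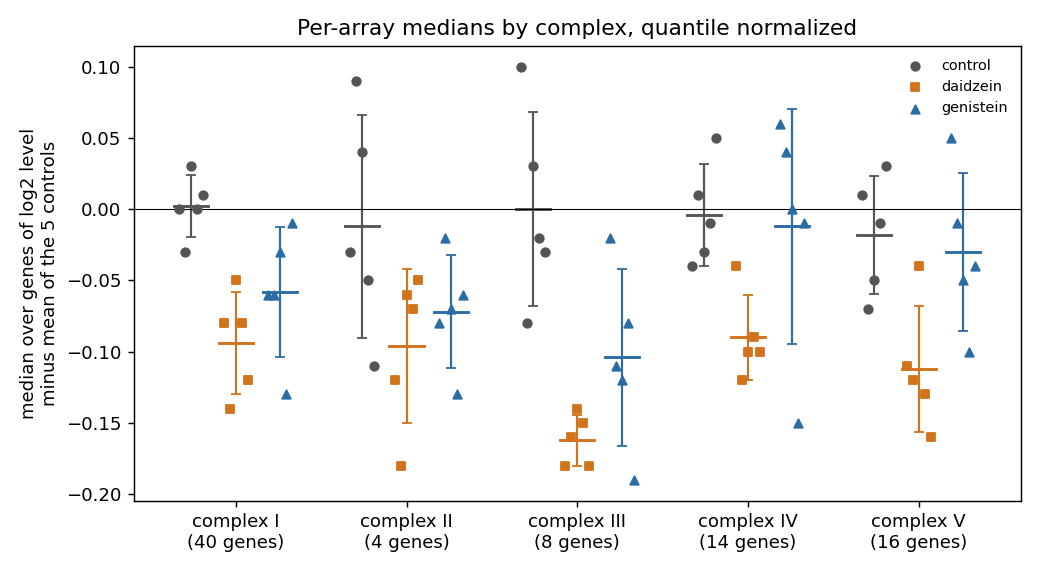
Each point is 1 array: the median, over the tested genes of a complex, of the log2 level minus the mean of the 5 controls, after quantile normalization. Assembly factors are counted with complex I and Atp5if1 with complex V. Ndufa4, Ndufa4l2, Cox7a2l and the pseudogene Cox6c-ps1 are counted with complex IV. Bars are the mean and SD of 5 arrays per diet, with circles for control, squares for daidzein and triangles for genistein. The 5 daidzein arrays lie below every control only in complex III (-0.18 to -0.14 against -0.08 to 0.10) and complex I (-0.14 to -0.05 against -0.03 to 0.03).

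The 5 complexes had daidzein medians close to each other. They were -0.11 over the 40 genes of complex I, -0.12 over the 4 of complex II and -0.13 over the 8 of complex III. They were -0.10 over the 14 tested genes of complex IV and -0.10 over the 16 of complex V. The 40 include 6 assembly factors, and the 16 include the inhibitor Atp5if1. The 14 include Ndufa4, Ndufa4l2, Cox7a2l and the pseudogene Cox6c-ps1. Genistein medians were -0.06, -0.07, -0.09, 0.00 and -0.04 in the same order. The difference between complexes was not tested. Complex III was the complex in which all 8 genes were below 0 with both diets. In complex V, 15 of 16 genes were below 0 with daidzein, and 12 of 16 with genistein.

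At an unadjusted p under 0.05, 20 of the 82 genes (24.4%) were lower with daidzein, against 4.5% of all tested genes. Of these 20, 9 were in complex I, 3 in complex III, 3 in complex IV, 5 in complex V and 0 in complex II. With daidzein 0 were higher, against 434 of all 10745 genes. Because the SE was smaller in the set (median 0.084 against 0.124), differences of equal size reach this p more often there. Of 42 cytosolic ribosome genes, with a median SE of 0.08, 3 were lower with daidzein (7.14%) and 2 higher. With genistein, 7 of the 82 genes were lower (8.54%), against 6.05% of all genes, and 1 was higher, against 595 of 10745. Without control 1, which had the widest inferred scale, and genistein 4, a fit chosen after seeing the data, the daidzein count was again 20 and the daidzein median of the 82 genes -0.11, whereas the genistein median was -0.01.

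**Figure D2:**
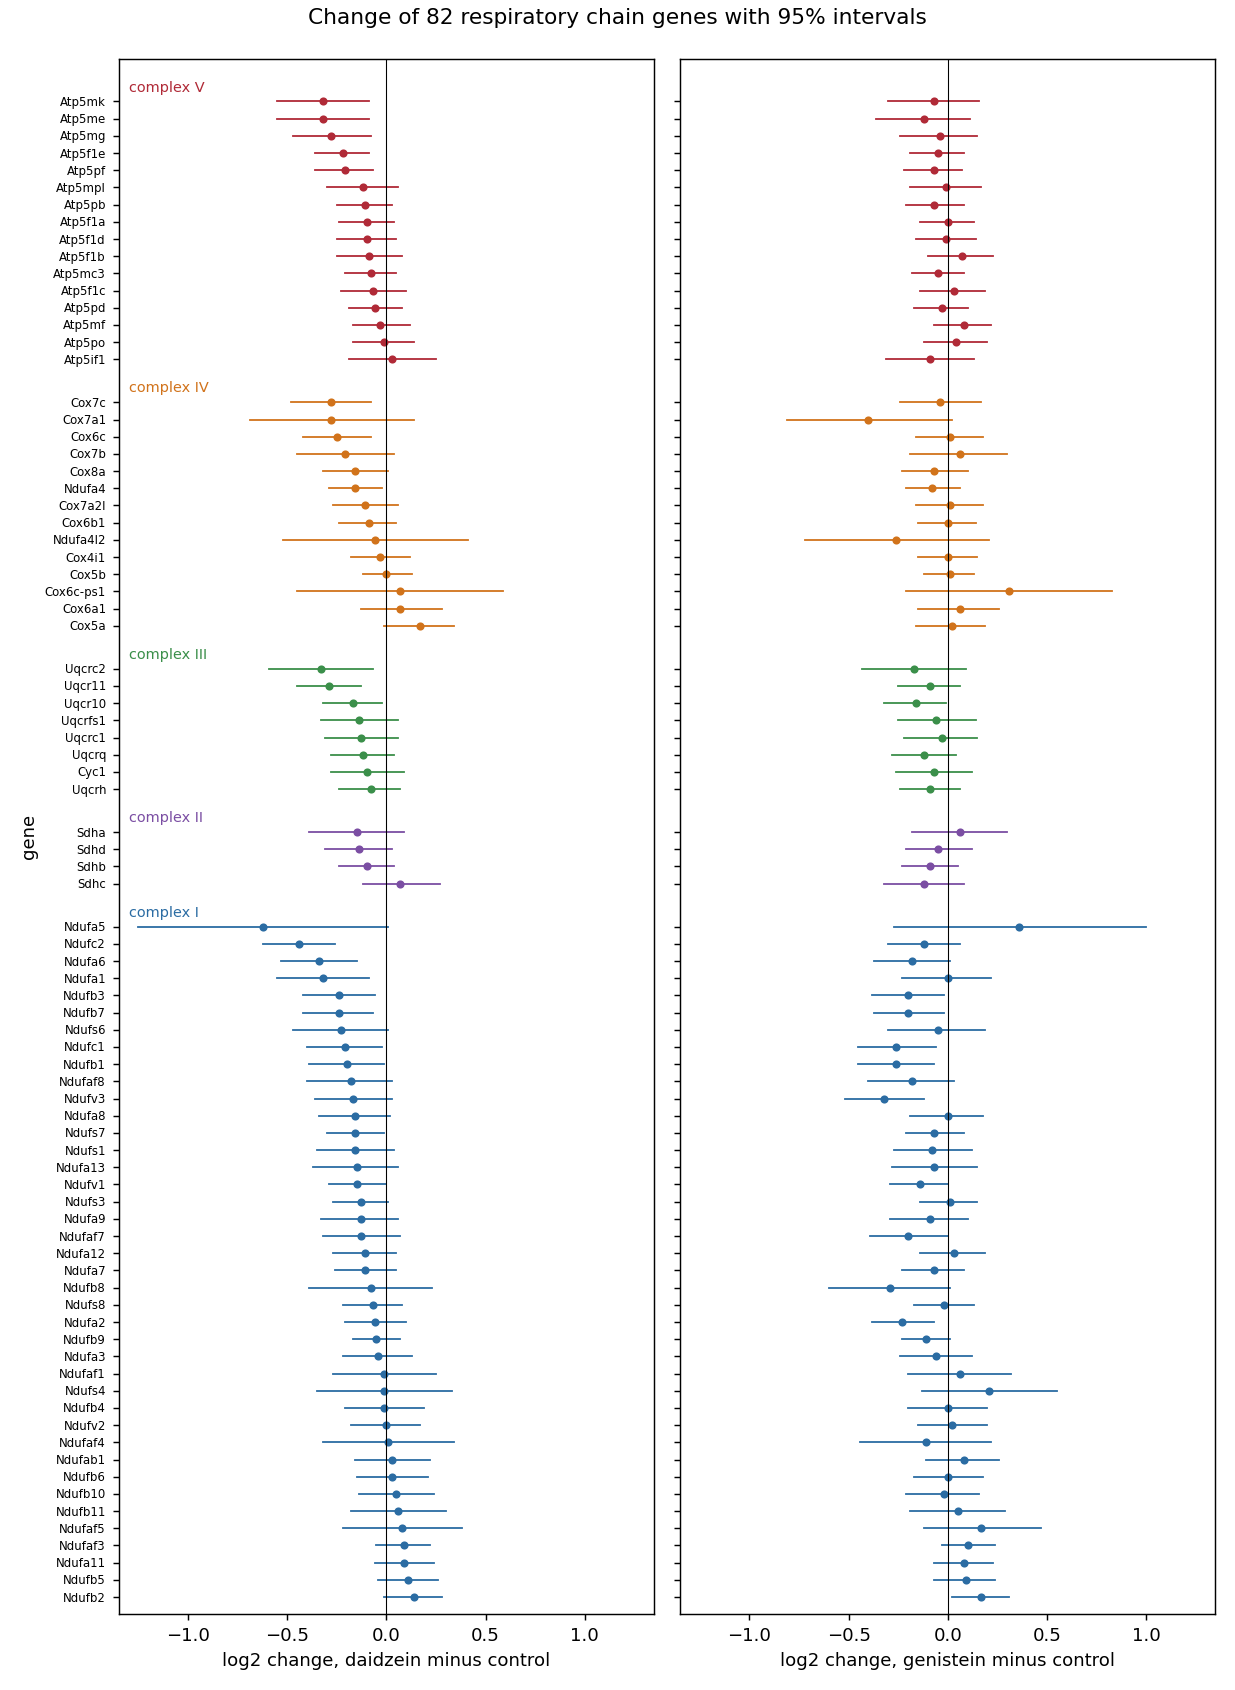
Points are the log2 differences of the 82 tested genes from limma, daidzein minus control on the left and genistein minus control on the right, with 95% intervals, grouped by complex and ordered by the daidzein value. Most daidzein points lie left of 0 (66 of 82), and the intervals of 20 genes stay below it. The genistein points are spread closer around 0, with 55 of 82 on the left. Both panels share the same controls.

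Complex I is the largest complex. Its core subunits, which carry the flavin and the iron-sulfur clusters, had a daidzein median of -0.14, with 6 of 6 below 0 (Ndufv2 is listed at 0.00). Ndufv1, which binds NADH, differed by -0.15 (SE 0.07, limma adjusted p = 0.6) with daidzein and by -0.14 (SE 0.07) with genistein. Ndufs7, the iron-sulfur subunit next to the quinone site, differed by -0.16 (SE 0.07, limma adjusted p = 0.585) with daidzein and by -0.07 (SE 0.07) with genistein. Ndufs1, the largest iron-sulfur subunit, differed by -0.16 (SE 0.09) and -0.08 (SE 0.09). Ndufs3, a core subunit of the quinone module, had controls of 4.79, 4.68, 4.79, 4.71 and 4.69 and daidzein arrays of 4.68, 4.56, 4.59, 4.52 and 4.66. At 2 decimals the highest daidzein array equals the lowest control, the arrays being apart only in further decimals, and the difference was -0.13 (SE 0.07, limma adjusted p = 0.642).

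The accessory subunits surround the core, and their daidzein differences ran from -0.62 to 0.14. Ndufc2, a small membrane subunit, had the lowest adjusted p of all the genes. Its control levels were 4.82, 4.49, 4.69, 4.51 and 4.59, its daidzein levels were 4.37, 4.22, 4.17, 4.02 and 4.13, and its genistein levels were 4.52, 4.56, 4.57, 4.36 and 4.51. All 5 daidzein arrays were below all 5 controls, and the genistein arrays lay among the lower controls apart from genistein 4. The daidzein difference was -0.44 (SE 0.09, a fold of 1.36, limma adjusted p = 0.147), and the genistein difference was -0.12 (SE 0.09, adjusted p = 0.668).

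Ndufa6, a subunit that binds the mitochondrial acyl carrier protein, had control levels of 5.32, 4.95, 5.36, 5.26 and 5.16 and daidzein levels of 4.83, 4.81, 5.01, 4.95 and 4.75. One daidzein array exceeded the lowest control. The difference was -0.34 (SE 0.09, limma adjusted p = 0.346) with daidzein and -0.18 (SE 0.09, adjusted p = 0.478) with genistein. Ndufv3, a small subunit of the NADH-binding module, had the lowest adjusted p of the set with genistein. Its controls were 5.44, 5.29, 5.42, 4.94 and 5.28, and its genistein arrays were 4.87, 5.04, 4.86, 4.93 and 5.08. Control 4 lay among the genistein arrays. The genistein difference was -0.32 (SE 0.09, limma adjusted p = 0.178), and it was -0.40 with adjusted p = 0.0659 when control 4 was left out. A second Ndufv3 probe set gave -0.13 (SE 0.13).

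Some accessory subunits had genistein arrays wholly apart from the controls. These were Ndufb1, Ndufb9 and Ndufc1, which were lower, and Ndufb2, which was higher, and they are named here after their values were seen. The 3 lower genes are 3.66% of the 82, against 1.64% of all genes, and the 1 higher gene is 1.22%, against 1.24% of all genes. Both counts depended on the normalization, as given further on with the daidzein count. Ndufb1 had controls from 5.65 to 5.71 and genistein arrays of 5.35, 5.48, 5.33, 5.38 and 5.54, while its daidzein arrays were split between 5.25, 5.28 and 5.50 on one side and 5.65 and 5.70 on the other. Its genistein difference was -0.26 (SE 0.09, limma adjusted p = 0.278). Ndufb2 differed by 0.17 with genistein (SE 0.07, adjusted p = 0.384) and by 0.14 with daidzein (SE 0.07, adjusted p = 0.629). The complex I assembly factors, which build the complex without being part of it, had medians of 0.00 with daidzein and -0.03 with genistein, and 3 of 6 were below 0 with each. Among them Ndufaf3 differed by 0.09 (SE 0.06) with daidzein, Ndufaf7 by -0.13 (SE 0.09) and Ndufaf8 by -0.18 (SE 0.10).

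Complex II, succinate dehydrogenase, is also an enzyme of the tricarboxylic acid cycle. Its flavoprotein Sdha differed by -0.15 (SE 0.11) with daidzein and 0.06 (SE 0.11) with genistein, and the membrane anchors Sdhc and Sdhd by 0.07 (SE 0.09) and -0.14 (SE 0.08) with daidzein. A second Sdhd probe set gave -0.19 (SE 0.08, limma adjusted p = 0.561). No complex II gene had an unadjusted p under 0.05.

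In complex III, which passes electrons from coenzyme Q to cytochrome c, Uqcr11, a small subunit, had the lowest p. Its controls were 5.44, 5.13, 5.24, 5.40 and 5.37, and its daidzein levels were 4.98, 5.07, 5.02, 5.14 and 4.94. The highest daidzein array was just above the lowest control. The daidzein difference was -0.29 (SE 0.07, limma adjusted p = 0.346) and the genistein difference -0.09 (SE 0.07). Uqcr10, another small subunit, had controls from 6.88 to 7.02 and daidzein arrays from 6.63 to 6.87, without overlap, and differed by -0.17 (SE 0.07) with daidzein and by -0.16 (SE 0.07) with genistein. The core protein Uqcrc2 differed by -0.33 (SE 0.12, limma adjusted p = 0.504) with daidzein on its brighter probe set, but by 0.14 (SE 0.25) on its other one, so its direction depends on the probe set. Uqcrc1 differed by -0.13 (SE 0.09) and Cyc1, the heme subunit, by -0.10 (SE 0.09).

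Complex IV, cytochrome c oxidase, has subunits with tissue isoforms. The isoforms known from liver and most other tissues, Cox4i1, Cox6a1, Cox6b1 and Cox8a, passed the filter, with mean levels from 5.81 to 7.14. Cox4i2, Cox6a2, Cox6b2, Cox7b2 and Cox8b, known from lung, heart, skeletal muscle or testis, lay under the filter level of -0.30, with mean levels from -1.49 to -0.54, and were not tested. Cox7a1, the heart and muscle form, had a mean level of 0.74 and passed. These levels give which probe sets passed the filter and do not compare the amounts of the isoforms. Probe sets that carry several symbols are outside the rule, and 9 of them include a gene of the chain (among them Cycs, Cox7a2 and Uqcrb), so cytochrome c itself was not analysed here.

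Cox6c, a nuclear subunit of complex IV, had controls of 6.13, 6.13, 6.14, 6.17 and 6.35, daidzein levels of 6.10, 5.91, 5.86, 5.89 and 5.90 and genistein levels of 6.30, 6.23, 6.26, 5.98 and 6.20. All daidzein arrays were below all controls, and 4 of the 5 genistein arrays lay within the control range, with genistein 4 below it. The daidzein difference was -0.25 (SE 0.08, limma adjusted p = 0.409) and the genistein difference 0.01 (SE 0.08). Cox7c differed by -0.28 (SE 0.09) with daidzein and by -0.04 (SE 0.09) with genistein, and Ndufa4, named for complex I but now known as a complex IV subunit, by -0.16 (SE 0.06) and -0.08 (SE 0.06). Cox4i1, the main form of subunit 4, differed by -0.03 (SE 0.07) with daidzein and by 0.00 (SE 0.07) with genistein. Its sign with daidzein turned under 4 of the other normalizations.

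ATP synthase consists of a catalytic head, F1, and a membrane part with its stalks, Fo. With daidzein, the 5 F1 genes had a median of -0.10, with 5 of 5 below 0, and the 10 Fo and stalk genes had a median of -0.12, with 10 of 10 below 0. The catalytic beta subunit, Atp5f1b, differed by -0.09 (SE 0.08) with daidzein and 0.07 (SE 0.08) with genistein, and the alpha subunit Atp5f1a by -0.10 (SE 0.07) and 0.00 (SE 0.07). Atp5f1e, the epsilon subunit, had controls of 6.40, 6.23, 6.44, 6.38 and 6.39 and daidzein levels of 6.14, 6.10, 6.09, 6.24 and 6.16. One daidzein array was just above the lowest control, and the difference was -0.22 (SE 0.06, limma adjusted p = 0.382).

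In the membrane part, Atp5pf, the coupling factor of the stalk, had controls of 5.10, 5.07, 5.09, 5.16 and 5.12 and daidzein levels of 4.86, 5.00, 4.84, 4.83 and 4.94. The groups did not overlap, and the difference was -0.21 (SE 0.07, limma adjusted p = 0.426). The small subunits Atp5mg, Atp5mk and Atp5me, which lie where the enzyme dimerizes, differed by -0.28 (SE 0.09), -0.32 (SE 0.11) and -0.32 (SE 0.11) with daidzein, and by -0.04 (SE 0.09), -0.07 (SE 0.11) and -0.12 (SE 0.11) with genistein. Atp5if1, the inhibitor that blocks ATP hydrolysis, differed by 0.03 (SE 0.10) with daidzein and by -0.09 (SE 0.10) with genistein.

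In 7 of the 82 genes the 5 daidzein arrays were all below the 5 controls, which is 8.54%, against 1.14% of all tested genes. Besides Ndufc2, Ndufs3, Uqcr10, Cox6c and Atp5pf they were Ndufb7 and Atp5me. Ndufb7, an accessory subunit on the intermembrane side, had controls from 4.91 to 5.09 and daidzein arrays from 4.53 to 4.88, and differed by -0.24 (SE 0.08, limma adjusted p = 0.445) with daidzein and by -0.20 (SE 0.08, adjusted p = 0.386) with genistein. The lists of genes named for non-overlap were read from the values and carry no test of their own. This daidzein count depended on the normalization. It was 11 with cyclic loess (13.4%, against 1.08% of all genes) and 7 with 16 added (8.54% against 1.15%). With own factor it was 2 (2.44% against 0.781%), and with own factor and median centring 1 (1.22% against 0.614%). With the common factor and no normalization it was 1 (1.22% against 0.633%), and with median centring 0 (0.298% of all genes). Genes wholly lower with genistein numbered 5 with cyclic loess (6.1% against 1.56%) and 3 with 16 added (3.66% against 1.63%). They numbered 8 with own factor (9.76% against 2.47%) and 2 with the common factor (2.44% against 1.37%). With median centring, on the common or own factor, there were 0 (0.633% and 1.1% of all genes). Genes wholly higher with genistein numbered 1 with cyclic loess and with 16 added, and 0 with the common or own factor, median centred or not.

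**Figure D3:**
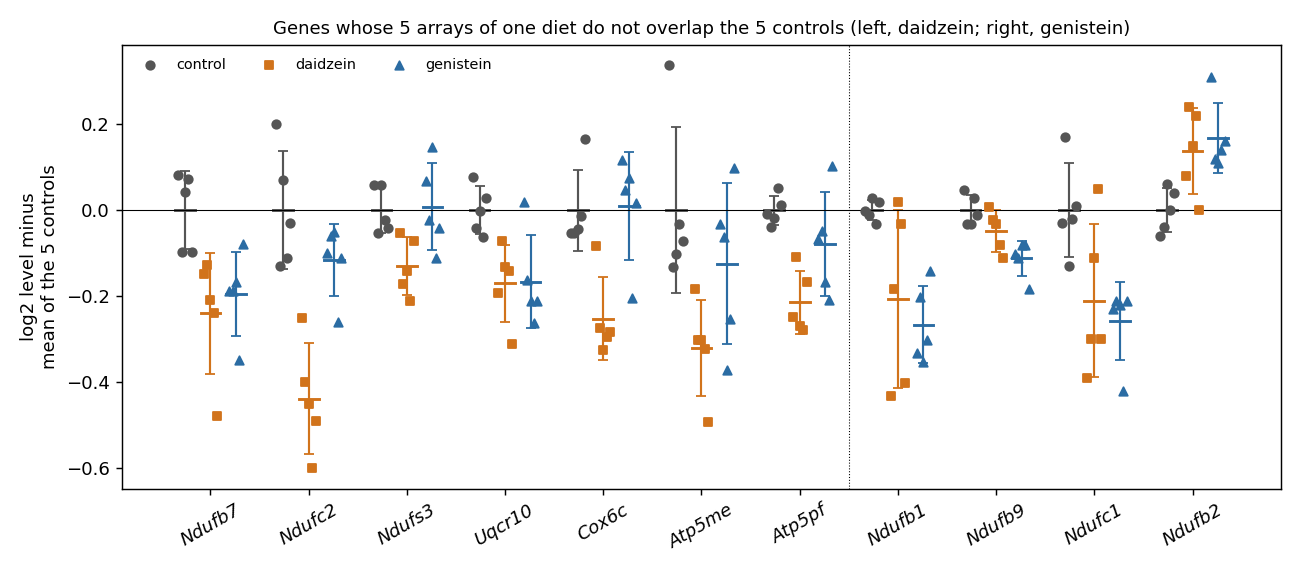
Each point is 1 array: the log2 level of a gene minus the mean of its 5 controls, with the mean and SD per diet (circles control, squares daidzein, triangles genistein). Levels are quantile normalized. Left of the dotted line are the 7 genes whose daidzein arrays were all below the controls, and right of it the 4 genes whose genistein arrays did not overlap them. For Ndufc2 the daidzein arrays lie between 4.02 and 4.37 and the controls between 4.49 and 4.82 on the level scale, the widest separation shown.

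Genistein and daidzein were fed at the same dose and for the same time, which allows a direct comparison of the isoflavones. In this single pair, 61 of the 82 genes were higher with genistein, against 50.4% of all genes, with a median of 0.05. By complex, the medians were 0.03, 0.05, 0.05, 0.08 and 0.10 for complexes I to V, and 15 of 16 complex V genes were above 0. At an unadjusted p under 0.05, 10 of the 82 genes were higher with genistein, against 5.05% of all genes. Ndufa2 alone was lower (1.22%, against 4.82% of all genes). After quantile normalization only Atp5f1e had genistein arrays wholly above the daidzein arrays (1.22%, against 1.05% of all genes). This count was 2 with cyclic loess (119 of all 10749 genes) and 1 with 16 added (113 of 10747). It was 0 with the common or own factor, median centred or not. Each of those settings had 1 gene wholly below instead (1.22%, against 0.884% to 1.27% of all genes). No gene was called.

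The lowest adjusted p was that of Ndufc2, 0.32 higher on the log2 scale with genistein (SE 0.09, 95% interval 0.14 to 0.50, limma adjusted p = 0.164). Cox6c differed by 0.26 (interval 0.09 to 0.43, limma adjusted p = 0.241), Atp5f1e by 0.17 (interval 0.03 to 0.31) and Atp5f1b by 0.15 (interval -0.01 to 0.32). Others were close together on these arrays: Ndufv1 differed by 0.01 (interval -0.14 to 0.15), Uqcr10 by 0.01 (interval -0.14 to 0.16) and Cox4i1 by 0.02 (interval -0.13 to 0.17). The interval lay within 0.5 of 0 for 73 of 82 genes, and for 7431 of all 10745 tested genes. The largest difference was that of Ndufa5, an accessory subunit named here for that size, at 0.98 (SE 0.30, limma adjusted p = 0.241). Its controls were 2.25, 3.51, 2.53, 2.14 and 2.03, its daidzein levels were 2.21, 1.97, 1.65, 1.71 and 1.83, and its genistein levels were 3.26, 1.82, 3.26, 2.81 and 3.12. Genistein 2 lay among the daidzein arrays, and the controls spanned most of the range.

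How far the groups separate depends on the normalization, and the direction of the genistein to daidzein difference does too. The daidzein median of the 82 genes was below 0 under all 7 normalizations tried, at -0.11 with quantile, -0.12 with cyclic loess, -0.11 with 16 added to the rebuilt intensities, -0.07 with the common factor and no normalization between arrays, -0.06 with median centring, -0.13 with each array's own factor, and -0.11 with own factor and median centring. The genistein median was also below 0 under all 7, between -0.15 and -0.03. The lowest value, with own factor and no normalization, came where the median over all genes was itself -0.05 and 62% of all genes were below 0. Over the other normalizations the all-gene median with genistein lay between -0.02 and 0.02. The genistein minus daidzein median, 0.05 with quantile normalization, was 0.00 with the common factor and no normalization, -0.03 with each array's own factor, and -0.01 with own factor and median centring. The medians over all genes in those settings were -0.01, -0.03 and -0.01.

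Normalizations that equalise whole distributions gave narrow groups. Under quantile, cyclic loess and 16 added, all 5 daidzein medians lay below all 5 control medians. Under median centring the control medians ran from -0.47 to 0.29, with control 1 lowest, and the daidzein medians from -0.24 to 0.17, inside them. With the common factor and no normalization the controls ran from -0.27 to 0.18 and the daidzein arrays from -0.17 to 0.05. At an unadjusted p under 0.05, the genes lower with daidzein numbered 20 with quantile (24.4%, against 4.5% of all genes), 20 with cyclic loess (24.4% against 4.61%) and 21 with 16 added (25.6% against 4.58%). They numbered 15 with own factor (18.3% against 4.52%), 9 with own factor and median centring (11% against 2.84%) and 8 with the common factor (9.76% against 3.75%). With median centring there was 1, and its share of 1.22% was below the 2.03% of all genes. No normalization gave a called gene.

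**Figure D4:**
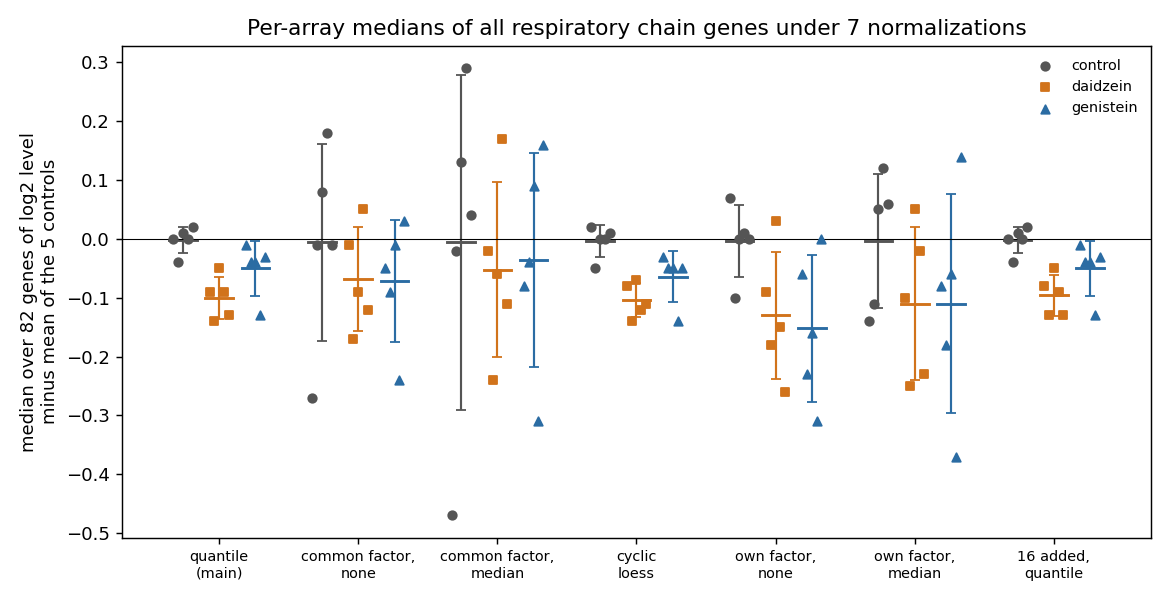
Each point is 1 array: the median over 82 genes of the log2 level minus the mean of the 5 controls, under 7 ways of scaling and normalizing the deposited scores, with the mean and SD per diet (circles control, squares daidzein, triangles genistein). The daidzein mean is below 0 in every column, but the controls span -0.04 to 0.02 under quantile normalization and -0.47 to 0.29 under median centring, where the diets overlap.

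Other genes of mitochondrial metabolism give the setting. In the tricarboxylic acid cycle, which feeds the chain with NADH and succinate, 9 of 12 genes were below 0 with daidzein, with a median of -0.11, 3 of 12 were lower at an unadjusted p under 0.05, and none was called. Suclg1, a succinyl-CoA ligase subunit, differed by -0.34 (SE 0.10, limma adjusted p = 0.382) and Idh3b, of NAD-dependent isocitrate dehydrogenase, by -0.26 (SE 0.08, adjusted p = 0.382). The median was -0.05 over the 73 mitochondrial ribosome genes, -0.02 over 42 cytosolic ribosome genes and -0.04 over 35 assembly factors. In the mitochondrial ribosome, Mrpl33 differed by -0.30 (SE 0.07) and Mrpl30 by 0.18 (SE 0.07). In the cytosolic ribosome, Rps24 differed by -0.34 (SE 0.10) and Rpl34 by 0.21 (SE 0.07). Among the assembly factors, Uqcc3 differed by -0.32 (SE 0.09) and Pet100 by -0.05 (SE 0.06). The median was -0.04 over the 9 carriers, among them the ADP/ATP carrier Slc25a5 at -0.24 (SE 0.08) and Slc25a10 at -0.18 (SE 0.16). The 15 regulators of mitochondrial gene expression had a median of 0.03. Ppargc1a, the coactivator PGC-1 alpha, was at -0.13 (SE 0.31) and Tfb2m at 0.00 (SE 0.08). These lists were not compared with the chain by a test.

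With genistein, the corresponding medians were -0.05 for the tricarboxylic acid cycle (8 of 12 below 0), -0.04 for the mitochondrial ribosome and 0.02 for the cytosolic ribosome. They were 0.01 for the assembly factors, -0.02 for the carriers and 0.05 for the regulators, and no gene of these lists was called. Ppargc1a differed by 0.54 (SE 0.31, limma adjusted p = 0.577) with genistein. It was 0.67 higher with genistein than with daidzein (SE 0.31, limma adjusted p = 0.523). Sqor, which passes electrons from sulfide to coenzyme Q, differed by 1.03 (SE 0.27, limma adjusted p = 0.138) with genistein and by 0.49 (SE 0.27, adjusted p = 0.661) with daidzein. Etfb, listed with Sqor among other electron donors, differed by -0.12 (SE 0.07) with genistein and by -0.19 (SE 0.07) with daidzein. Coq7, an enzyme of coenzyme Q synthesis, differed by -0.38 (SE 0.11, limma adjusted p = 0.382) with daidzein and by -0.19 (SE 0.11) with genistein. Coq10a, of the same list, differed by -0.17 (SE 0.12) with daidzein and by 0.27 (SE 0.12) with genistein. Between genistein and daidzein, Mrpl30 differed by -0.34 (SE 0.07, limma adjusted p = 0.0879).

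Some measures of other cell types and of RNA quality stand beside the daidzein values. Summed Kupffer cell markers, 7 of 7 above the filter, ran from 93.3% to 113% of the control mean in controls, from 74.5% to 103% with daidzein and from 78.8% to 123% with genistein. Stellate cell markers, 8 of 8, ran from 94.1% to 108%, 76.6% to 95.7% and 96% to 106%. Endothelial markers, 5 of 5, ran from 89.3% to 115%, 90.2% to 99.3% and 91.4% to 118%. Red blood cell markers, 4 of 5, ran from 84.2% to 141%, 87.1% to 122% and 83% to 98.9%. The red blood cell genes had a median difference of 0.19 with daidzein, with 4 of 4 above 0. Skeletal muscle markers, 3 of 8, ran from 91.7% to 112%, 79.9% to 115% and 69.8% to 97.5%. Bile duct and adipocyte lists had only 1 gene each above the filter. Hepatocyte markers, a sum that includes Alb at the same level with each diet, ran from 97.9% to 101% in controls and from 96.5% to 99.3% with daidzein. The Gapdh control probe sets, whose 3' minus 5' difference tracks RNA integrity, differed by -0.0708 between daidzein and control (exact permutation test, two-sided p = 0.0238, adjusted p = 0.286 over 12 comparisons). The same measure of Actb differed by -0.0381 (exact permutation p = 0.571, adjusted p = 0.847). Neither passed the adjusted threshold. The part of these measures in the lower levels of the respiratory chain genes was not tested.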

How the data were processed

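Rat liver RNA of 3 diets was measured on 15 Affymetrix arrays, 5 per diet. The authors deposited 1 score per probe set and array, a standardized log signal whose scale and normalization are not given in the sources used here. Repeated values in each array gave its scale factor: 493 of 493 gaps were whole multiples within 0.001, and the factors ran from 2.54 to 2.79. Scores times the mean factor of 2.60 served as log2 levels and were quantile normalized with limma 3.58.1 in R 4.3.3. Affymetrix control probe sets (57) did not enter, and probe sets under the 40th percentile of mean level were not tested. A fit over the 3 diets was checked on simulated data. Replicate numbers did not pair the arrays: 1 of 15 same-number pairs had a correlation of deviations over 0.1. Those numbers are from the sample titles. The sample descriptions number several arrays differently, and pairing by them was not checked.

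Named genes were, per group of subunits, the 3 of lowest unadjusted p over the comparisons, plus Sdha, Cyc1, Cox4i1, Uqcrc1, Ndufs1 and Atp5f1b, the complex IV tissue isoforms, and 2 genes per comparison list. Ndufb1, Ndufb2, Ndufb7, Ndufb9, Ndufc1, Atp5me, Ndufa5 and Ndufa2 were added after their values were seen. The genes and lists were chosen with earlier results of these data known. Gene symbols came from the platform annotation, with all 87 found in the RefSeq gene table.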

Additional observations from a re-analysis of the deposited data

Results flagged for a closer look

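Among 102 sets of 5 arrays (the complex medians and the named genes, by diet), 5 had an array far from the other 4, and chance gives about 1 in 20. Daidzein 1 stood above the other daidzein arrays for Atp5mk (5.51 against 4.95 to 5.08) and for Cox6c (6.10 against 5.86 to 5.91). Control 5 stood above the other controls for Cox6c (6.35 against 6.13 to 6.17). Genistein 4 stood below the other genistein arrays for Ndufc2 (4.36 against 4.51 to 4.57). Daidzein 2 stood below the other daidzein arrays for Atp5if1 (1.90 against 2.15 to 2.24).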

How the results depend on the processing

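No gene of the set was called under any of 30 alternatives, at a lowest adjusted p of 0.0652 among the named genes (Ndufc2 with daidzein, trended and robust variance). Of 870 values of 29 named gene and comparison pairs, 864 kept their direction, and 6 turned. Cox4i1 with daidzein was 0.06 with the common factor and no normalization, 0.08 with median centring, 0.00 with cyclic loess, 0.02 with own factor and median centring, and 0.00 without control 5. Uqcrc2 with daidzein was 0.14 on its second probe set. The cause was not tested. With the replicate block, which the check of the numbers did not bear out, the daidzein count was 18, the genistein count 8 and the genistein over daidzein count 10, and no call changed.

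Genes lower with daidzein at an unadjusted p under 0.05 (20) numbered 8 with the common factor and no normalization, 1 with median centring and 9 with own factor and median centring, and 14 to 21 when 1 array was left out. Genes lower with genistein (7) numbered 4, 1 and 18 with the common factor, median centring and own factor, 11 with the filter at the 60th percentile, 11 with trended and robust variance, and 5 to 11 with 1 array left out (11 without control 2). Genes higher with genistein than daidzein (10) numbered 3 with the common factor, 2 with median centring, 2 with own factor, 2 with own factor and median centring, 17 without control 1 and genistein 4 together, and 8 to 15 with 1 array left out.

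Daidzein medians were -0.07 (all genes of the set) with the common factor, and with median centring -0.06 (all), -0.06 (complex I), -0.07 (III) and -0.05 (V). The complex I median was -0.06 on second probe sets. Genistein medians with own factor were -0.15 (all) and -0.14, -0.20, -0.21, -0.13 and -0.13 for complexes I to V. With own factor and median centring they were -0.11 (all) and -0.10, -0.16, -0.17, -0.09 and -0.09. Without control 1 and genistein 4 the median of all was -0.01. Genistein minus daidzein medians with the common factor were 0.00 (all) and -0.02, -0.02, -0.01, 0.01 and 0.04 for complexes I to V. They were -0.03 (all) and -0.05, -0.05, -0.05, -0.02 and 0.01 with own factor. With own factor and median centring they were -0.01 (all) and -0.03, -0.03, -0.03, 0.00 and 0.03. The complex IV median was 0.02 without the filter. With 1 array left out, medians of all genes ran from -0.12 to -0.10 (daidzein), -0.05 to -0.03 (genistein) and 0.04 to 0.06 (genistein minus daidzein). Probe sets near background and 5 arrays per diet limit what can be seen.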
